A study of Mus musculus with 10 samples.

Results

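Serum amyloid A genes and the genes that build, remodel and clear high-density lipoprotein (HDL) were examined in mouse liver. They were the rows of the deposited table whose symbol is Saa1, Saa2, Saa3, Saa4, Apoa1, Apoa2, Lcat, Pltp, Scarb1 or Abca1, and all 10 were found among 24972 genes. RNA came from livers of tumour-bearing mice labelled wild type. In the T cell-low group (4 libraries) the tumour line was 6419c1 and in the T cell-high group (6 libraries) it was 6555c3. Both lines are pancreatic ductal adenocarcinoma lines from KPC mice, a genetic model of pancreatic cancer, and the class names refer to the T cell content of the tumours they form. Each class is thus a single line, and class and line cannot be told apart. No library from a tumour-free mouse was analysed here, and the age and sex of the mice and the site of the tumour are not in the labels used. Whether every library is its own mouse is not in the labels, so the p-values below rest on the spread among libraries, and that spread could be technical.

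Serum amyloid A proteins are small apolipoproteins that hepatocytes secrete in large amounts during the acute phase response, when interleukin 6, interleukin 1 and tumour necrosis factor act through STAT3, NF-kB and C/EBP factors. In plasma the acute phase forms travel on HDL, where they displace part of apolipoprotein A-I. HDL itself forms when ABCA1 loads phospholipid and cholesterol onto apolipoprotein A-I. LCAT then esterifies the cholesterol, PLTP exchanges phospholipid between particles, and the receptor SCARB1 takes up cholesteryl ester into the hepatocyte.

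The 4 serum amyloid A genes sit side by side within 42.3 kb of chromosome 7 (GRCm38, 46711998 to 46754313, GENCODE vM21), in the order Saa3, Saa4, Saa1, Saa2. Saa1 and Saa2 point away from each other, with 8.81 kb between their annotated starts, and Saa2 alone lies on the forward strand. Their upstream sequences are shown because these neighbours differed in how they varied between the livers. Each is the stretch from 250 to 51 bases before the RefSeq start (GRCm38.p6), 200 bases on the gene's own strand, ending there to stay outside annotated transcripts. Capitals mark matches, on either strand, to a C/EBP core (TTNNGNAA), a STAT site (TTCNNNGAA) or an NF-kB site (GGACTTTCC), and all matches shown in capitals are of the first kind. A nuclear receptor core site (AGGTCA) and an E-box (CACGTG) were searched too and are not in capitals.

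Saa1, chr7:46743031-46743230, reverse strand: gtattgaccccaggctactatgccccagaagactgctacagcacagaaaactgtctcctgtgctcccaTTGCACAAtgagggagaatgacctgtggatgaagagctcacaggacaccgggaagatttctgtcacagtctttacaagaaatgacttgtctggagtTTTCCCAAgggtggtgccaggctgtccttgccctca
Saa2, chr7:46751583-46751782, forward strand: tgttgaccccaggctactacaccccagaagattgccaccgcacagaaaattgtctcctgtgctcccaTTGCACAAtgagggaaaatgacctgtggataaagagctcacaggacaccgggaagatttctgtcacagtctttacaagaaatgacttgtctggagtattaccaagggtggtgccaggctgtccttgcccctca
Saa3, chr7:46715727-46715926, reverse strand: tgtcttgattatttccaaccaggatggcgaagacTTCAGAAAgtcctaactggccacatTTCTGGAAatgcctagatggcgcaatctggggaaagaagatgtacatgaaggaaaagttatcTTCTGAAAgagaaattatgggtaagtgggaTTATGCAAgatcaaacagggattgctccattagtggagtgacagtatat
Saa4, chr7:46732654-46732853, reverse strand: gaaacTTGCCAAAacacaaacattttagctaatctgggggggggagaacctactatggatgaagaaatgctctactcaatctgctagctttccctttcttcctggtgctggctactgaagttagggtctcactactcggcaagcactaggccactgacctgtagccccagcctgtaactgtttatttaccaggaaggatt

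The Saa1 and Saa2 stretches were identical at 188 of 201 aligned positions (93.5%), whereas the other pairs of the family matched at 45.2% to 52.3%. Both hold a C/EBP match at about the same place, 182 to 175 bases before the start in Saa1 and 183 to 176 in Saa2, and Saa1 has another 86 to 79 bases before its start. Saa3 holds 4 such matches and Saa4 holds 1. The core receptor site was found once each in Saa1 (164 to 159 bases before the start), Saa2 (165 to 160) and Saa4 (96 to 91), all on the opposite strand, and the E-box in none of the 4. Among 32851 RefSeq start sites taken over the same 200 bases, 32.3% hold a C/EBP core match, 5.76% a STAT match, 0.225% an NF-kB match, 11.4% the core receptor site and 4.34% the E-box. The C/EBP core is thus common, and a match is a run of letters and not a shown binding site. RefSeq upstream sequence was matched for 9 of the 10 genes, all but Scarb1.

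The deposited values are gene counts that the authors scaled, called scaled counts here. Differences between groups are given on the log2 scale of the scaled count plus 1, T cell-low minus T cell-high, with a standard error (SE) and a p-value adjusted over all 11110 genes with a mean of at least 10. Totals ran from 7000659 to 8257373 scaled counts per library. Saa3 values were whole multiples of a library-specific step in all 10 libraries (87 to 240 steps in the T cell-low group, 57 to 215 in the other, within 0.001 of a whole number). If a step is 1 read these are its read counts. The values of the other 9 genes were whole multiples in no library, so their read depth is unknown. Whole counts divided by 1 factor per library would all be whole multiples of a step. The scaling was thus not of that kind alone, and its factors are not in the sources used here. The libraries were uneven within groups. T cell-low 1 resembled the T cell-high libraries more than its own group (mean correlation over genes 0.936 against 0.861), and earlier work on these data set T cell-high 1, 3, 5 and 6 apart from T cell-high 2 and 4. The differences of the 10 genes and the counts over gene lists were therefore also taken against either set alone.

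Of the 10 genes, all of which passed the filter, 4 rose in T cell-low livers (Saa1, Saa2, Apoa1 and Abca1), 0 fell and 6 did not pass. Among all genes tested, 5.39% rose and 7.39% fell, 12.8% together. The same 4 genes had every T cell-low library above every T cell-high library, which held for 3.37% of all genes tested, and 0 of the 10 lay wholly below, against 4.02%. The median log2 difference of the 10 genes was 0.27, with 5 above and 5 below 0, against 0.003 over all genes. Against T cell-high 1, 3, 5 and 6 alone 5 of the 10 passed (23.6% of all genes did), Saa4 being the added one, which was lower. Against T cell-high 2 and 4 alone 0 passed, and 0% of all genes did by limma (1027 of 11057 had an unadjusted p below 0.05).

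**Figure D1:**
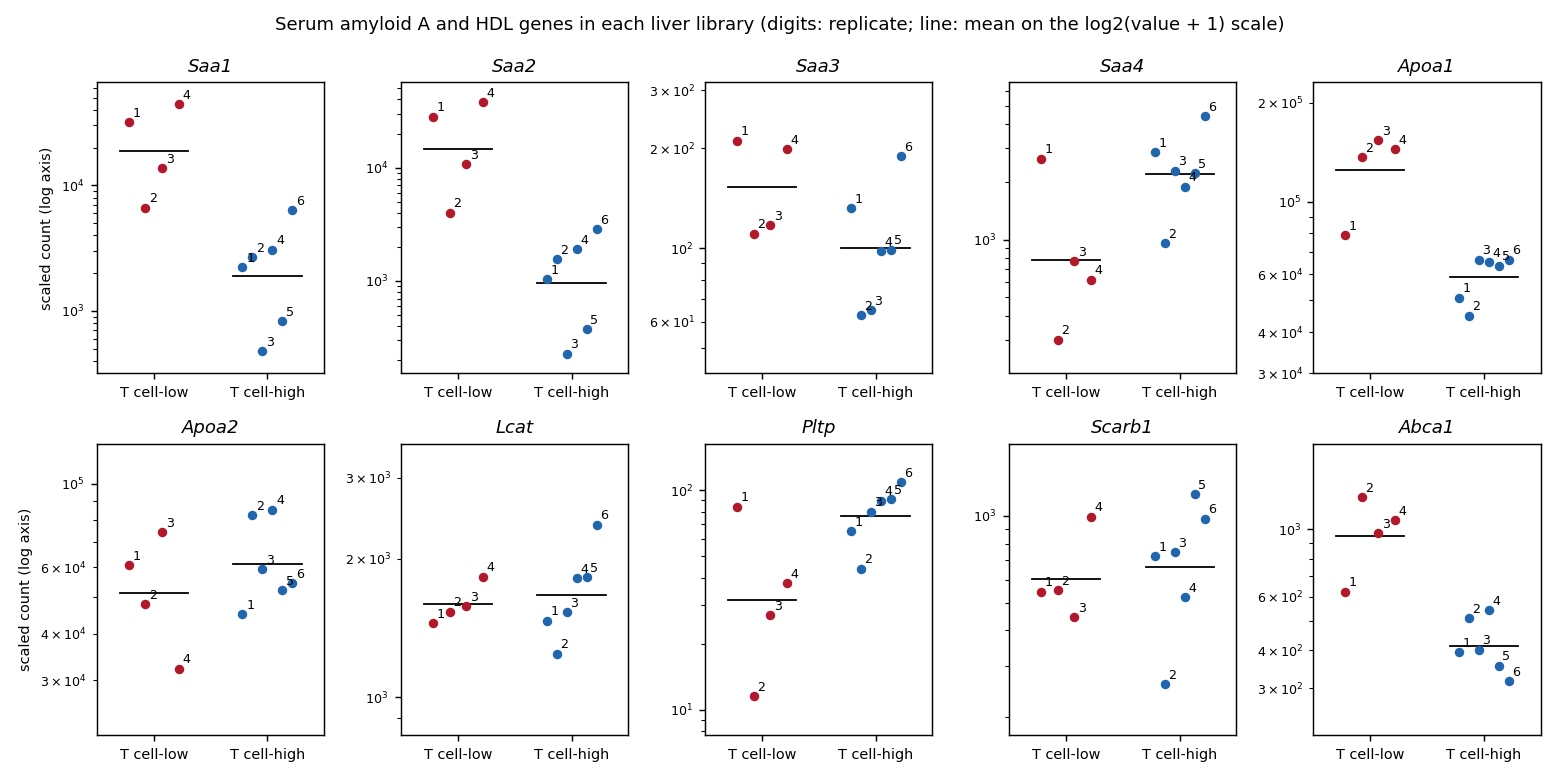
Scaled count of each of the 10 genes (vertical log axis) in the 4 T cell-low and 6 T cell-high liver libraries, each point a library with its replicate number and each line the group mean on the log2 scale. The groups do not overlap for Saa1, Saa2, Apoa1 and Abca1, while T cell-low 1 sits among the T cell-high libraries for Saa4 and Pltp.

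Saa1 and Saa2, which encode the circulating acute phase forms, were about an order of magnitude higher in T cell-low livers. Saa1 had 31820, 6626, 13723 and 44118 scaled counts in T cell-low 1 to 4, and in the T cell-high libraries it ran from 477 through a median of 2449 to 6313. Every T cell-low library lay above every T cell-high library, but T cell-low 2 exceeded T cell-high 6 by little. The log2 difference was 3.32 (SE 0.68, adjusted p = 0.0169), a 10.0-fold higher level with a 95% interval of 1.86 to 4.78 on the log2 scale. Saa2 had 28025, 3990, 10703 and 37712 scaled counts in T cell-low livers against 229, a median of 1300 and a highest value of 2865 in T cell-high livers. Its log2 difference was 3.93 (SE 0.74, adjusted p = 0.0132), 15.2-fold, and 13 of the 11110 genes had a larger one.

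Among T cell-high livers the inducible genes spread more than the other 8, Saa1 by 13.2-fold from the lowest to the highest library and Saa2 by 12.5-fold, next to 4.62-fold for Saa4. Among T cell-low livers they spread by 6.66-fold and 9.45-fold, and Saa4 (8.82-fold) and Pltp (7.29-fold) spread as widely. The 2 genes placed the 10 libraries in the same order, from T cell-high 3 and 5 at the bottom to T cell-low 1 and 4 at the top. When T cell-low 4 was left out, Saa1 (adjusted p = 0.0655) and Saa2 (adjusted p = 0.0506) missed the threshold, and 0 of the 10 genes passed (1.41% of all genes did). Against T cell-high 2 and 4 alone the log2 differences were 2.72 (SE 0.66) and 3.08 (SE 0.77), neither past the threshold (adjusted p = 0.514 and 0.527).

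Saa2 was higher relative to Saa1 in T cell-low livers. The level of Saa2 as a percentage of Saa1 within a library was 88.1, 60.2, 78.0 and 85.5 in T cell-low 1 to 4, and it ran from 45.1 to 62.1 among T cell-high libraries. This compares how the ratio moves between libraries and not the levels of the 2 genes, since the factors behind the scaled values are unknown. The part of such factors in the ratio was not tested. The log2 ratio was -0.37 ± 0.25 (SD, n = 4) against -0.98 ± 0.20 (SD, n = 6), a difference of 0.61 (exact two-sided permutation p = 0.019, adjusted p = 0.0267 over the 7 ratios compared). T cell-low 2 fell within the range of T cell-high 2 and 4, and leaving out T cell-low 1, 3 or 4 gave an adjusted p of 0.0556, 0.0667 and 0.0556. The pair share 8.44% of the 50-base words at the 3′ end of Saa1 transcripts, so some reads could be assigned to either gene, and the part of this in the ratio was not tested.

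Neither Saa3 nor Saa4 passed. Saa3, which macrophages and fat cells also make, had 211, 111, 117 and 199 scaled counts in the T cell-low libraries against 62.7 to 189 (median 98.3) in T cell-high livers. The groups overlapped, and the log2 difference of 0.61 (SE 0.33, 95% interval -0.10 to 1.32) did not pass (adjusted p = 0.205). Library by library Saa3 still went partly with Saa1, being highest in T cell-low 1 and 4 and, among T cell-high livers, in number 6 (Pearson r = 0.777 and Spearman rho = 0.709 over 10 libraries, r = 0.63 within the 6 T cell-high ones, as a description). Saa4, the form that is present in plasma without inflammation, had 2651, 301, 774 and 617 scaled counts in T cell-low livers and 956 to 4417 (median 2251) in T cell-high livers. T cell-low 2, 3 and 4 lay below all T cell-high libraries, and T cell-low 1 lay above 4 of the 6. The log2 difference was -1.49 (SE 0.52, 95% interval -2.60 to -0.37, adjusted p = 0.0688). It was -2.07 and passed without T cell-low 1 (adjusted p = 0.0032), where 6 of the 10 genes and 32.7% of all genes passed. It passed as well without T cell-high 2 (-1.73, adjusted p = 0.0327), where 2280 of 11122 genes passed. It also passed against T cell-high 1, 3, 5 and 6 alone (-1.85, adjusted p = 0.0327), where 23.6% of all genes did. That set was known from earlier work on these same data, so this is no independent result. Against T cell-high 2 and 4 the difference was -0.77 (adjusted p = 0.706). Without T cell-low 2 it was -1.03 (adjusted p = 0.226).

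Relative to Saa1, Saa4 and Saa3 were both lower in every T cell-low library than in any T cell-high library. The log2 ratio of Saa4 to Saa1 was -4.59 ± 1.11 (SD, n = 4) against 0.22 ± 1.41 (SD, n = 6), and that of Saa3 to Saa1 was -6.94 ± 0.80 against -4.23 ± 1.08. Both gave an exact two-sided permutation p of 0.00952, the smallest that 4 against 6 libraries can give, and an adjusted p of 0.0167 over the 7 ratios. With T cell-high 2 and 4 alone the differences were -3.50 and -1.77, a comparison of 4 with 2 libraries in which no ratio can pass.

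**Figure D2:**
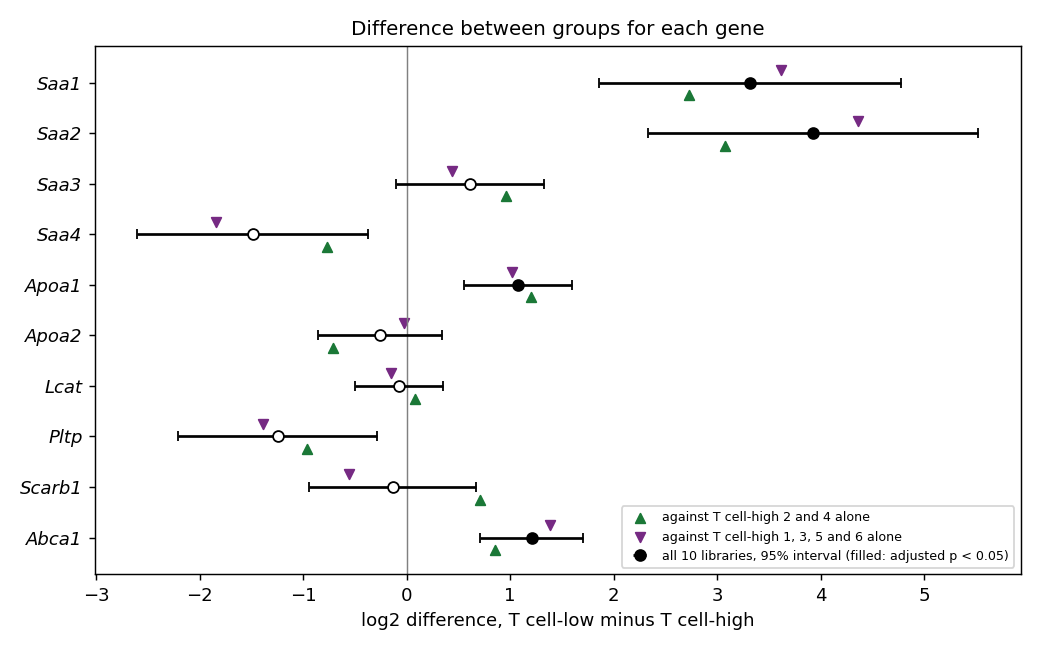
Log2 difference between T cell-low and T cell-high livers (horizontal axis) for each gene, with the 95% interval from all 10 libraries and, as triangles, the difference against T cell-high 2 and 4 alone or 1, 3, 5 and 6 alone. Filled circles, at 3.32 for Saa1, 3.93 for Saa2, 1.08 for Apoa1 and 1.21 for Abca1, passed an adjusted p of 0.05, and Scarb1 and Lcat change sign between the sets.

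Apoa1, which encodes the main structural protein of HDL (chr9:46228580-46230466), rose with the inducible serum amyloid A genes. As background, apolipoprotein A-I is usually classed among the negative acute phase proteins. Its levels were 78947, 136838, 154084 and 144243 scaled counts in T cell-low 1 to 4, against 44861 to 66504 (median 64584) in T cell-high livers. All 4 T cell-low libraries were above all 6 T cell-high libraries, T cell-low 1 by the least. The log2 difference was 1.08 (SE 0.24, 95% interval 0.55 to 1.60, adjusted p = 0.0208), 2.11-fold. The call ended without T cell-low 2, 3 or 4 or without T cell-high 1 (adjusted p = 0.0802, 0.0563, 0.0691 and 0.0507), and with no filter on low values (adjusted p = 0.12), while the difference stayed between 0.98 and 1.30 with any library left out.

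Apoa2, the second apolipoprotein of HDL (chr1:171225054-171226379), did not move with it. It had 60844, 47822, 74406 and 32243 scaled counts in T cell-low livers and 45008 to 85307 (median 56884) in T cell-high livers, and the groups overlapped. The log2 difference was -0.26 (SE 0.28, 95% interval -0.85 to 0.34, adjusted p = 0.532). The difference between these 2 apolipoproteins was tested by their ratio. Apoa2 relative to Apoa1 was -1.28 ± 0.75 (SD, n = 4) on the log2 scale in the T cell-low group and 0.06 ± 0.47 (SD, n = 6) in the T cell-high group, without overlap (exact two-sided permutation p = 0.00952, adjusted p = 0.0167 over the 7 ratios). T cell-low 1, at -0.38, was near the lowest T cell-high value of -0.29.

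Lcat, the plasma enzyme that apolipoprotein A-I activates (chr8:105939551-105943382), was the steadiest of the 10 in T cell-low livers. Its values there were 1447, 1534, 1577 and 1830 scaled counts, and they were 1242 to 2371 (median 1671) in T cell-high livers. The T cell-low range lay within the T cell-high range, and the log2 difference was -0.07 (SE 0.20, 95% interval -0.50 to 0.35, adjusted p = 0.819). Relative to Apoa1, Lcat was lower in all 4 T cell-low libraries than in all 6 T cell-high ones (log2 ratio -6.29 ± 0.37, n = 4, against -5.14 ± 0.20, n = 6, SD in both, exact two-sided permutation p = 0.00952, adjusted p = 0.0167 over the 7 ratios). As Lcat itself differed by only -0.07, this ratio difference of -1.15 mostly restates the Apoa1 difference of 1.08. The ratio of Saa1 to Apoa1 was higher by 2.24 on the log2 scale in T cell-low livers, with overlap between the groups (exact two-sided permutation p = 0.0571, adjusted p = 0.0571).

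Pltp, the phospholipid transfer protein (chr2:164839518-164857711), had low scaled counts throughout, and its read depth is unknown. It had 84.0, 11.5, 27.0 and 37.7 scaled counts in T cell-low livers against 43.9 to 109 (median 84.6) in T cell-high livers. As for Saa4, T cell-low 2, 3 and 4 lay below all T cell-high libraries and T cell-low 1 lay among them. The log2 difference of -1.24 (SE 0.44, 95% interval -2.20 to -0.28) did not pass (adjusted p = 0.0752). It passed without T cell-low 1 (-1.70, adjusted p = 0.00624), where 32.7% of all genes passed. It passed too without T cell-high 2 (-1.40, adjusted p = 0.0452), where 2280 of 11122 genes did. Without T cell-low 2 it was -0.78 (adjusted p = 0.232).

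Abca1, the exporter that starts HDL formation (chr4:53030787-53159895), rose as well. It had 624, 1274, 971 and 1072 scaled counts in T cell-low livers against 316 to 541 (median 398) in T cell-high livers, with no overlap. The log2 difference was 1.21 (SE 0.23, 95% interval 0.71 to 1.71, adjusted p = 0.0139), 2.31-fold. It just missed the threshold without T cell-low 2 (adjusted p = 0.0569, when 0.982% of all genes passed) or T cell-low 4 (adjusted p = 0.0506). Against T cell-high 2 and 4 alone it was 0.86 (SE 0.34, adjusted p = 0.527), since these were the T cell-high libraries with the most Abca1.

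Scarb1, the HDL receptor that brings cholesteryl ester into hepatocytes (chr5:125277087-125341094), spread widely among T cell-high livers. It had 546, 553, 444 and 994 scaled counts in T cell-low livers and 260 to 1187 (median 736) in T cell-high livers, T cell-high 2 being the lowest. The groups overlapped, with a log2 difference of -0.14 (SE 0.37, 95% interval -0.94 to 0.67, adjusted p = 0.819) that turned to 0.71 against T cell-high 2 and 4 and was -0.56 against the other T cell-high libraries. Abca1 relative to Scarb1 was higher by 1.34 on the log2 scale (exact two-sided permutation p = 0.0381, adjusted p = 0.0444 over the 7 ratios). That call was lost on leaving out any library but T cell-high 2, with adjusted p up to 0.0952, and the difference was 0.15 against T cell-high 2 and 4 alone and 1.94 against T cell-high 1, 3, 5 and 6.

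**Figure D3:**
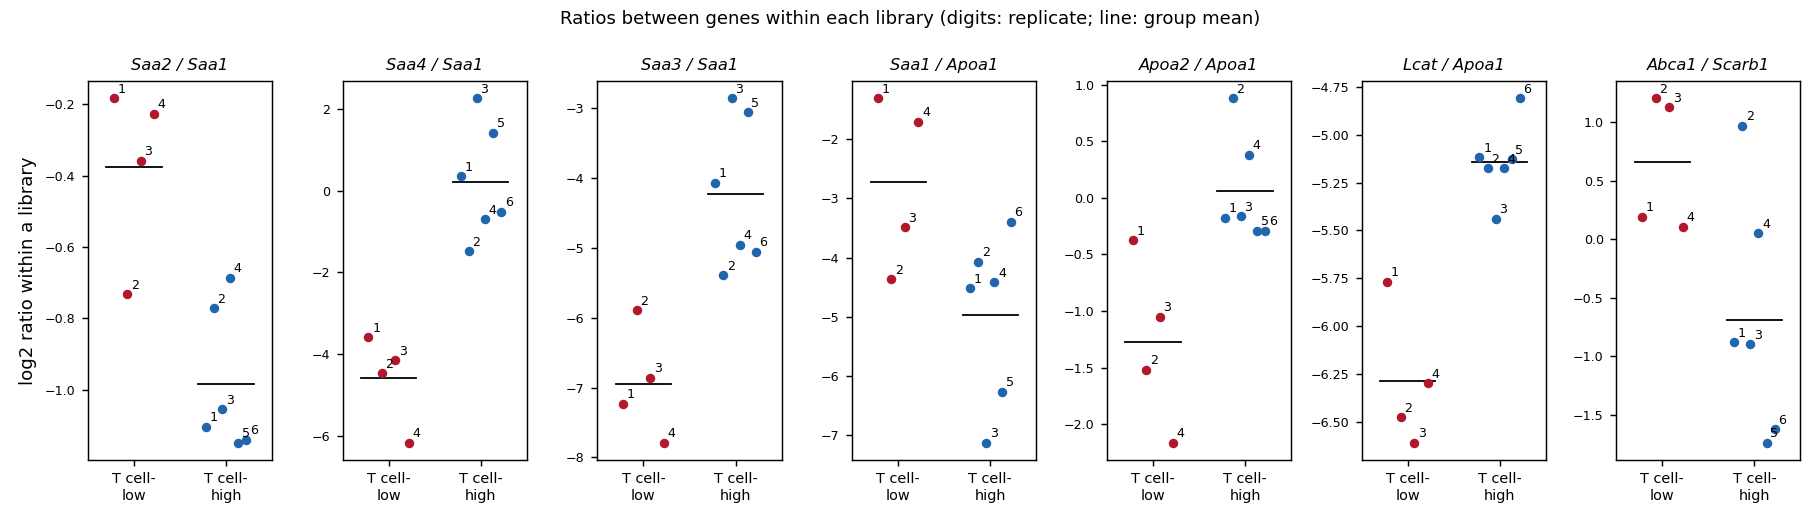
Log2 ratio of the scaled counts of 2 genes within each library (vertical axis, separate scale per panel) for the 7 ratios compared, with the libraries of both groups as numbered points and group means as lines. Saa4 and Saa3 relative to Saa1, and Apoa2 and Lcat relative to Apoa1, show no overlap between the groups, whereas the other 3 do.

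Other HDL genes passed in both directions. Of 39 further apolipoproteins, lipases and carriers, 36 were tested, 2 rose, 5 fell and 29 did not pass, with a median of -0.10 against 0.003 over all genes. The share that rose, 5.56%, was about that over all genes (5.39%), and 13.9% fell against 7.39%. The intestinal and hepatic apolipoprotein gene Apoa4 rose (3512 ± 4000 scaled counts, SD, n = 4, against 522 ± 184, n = 6, log2 difference 2.14, SE 0.56, adjusted p = 0.031). It reached 9423 in T cell-low 4, but T cell-low 1, at 629, lay below T cell-high 5. Apob, the structural protein of the liver's triglyceride-rich particles, rose by 1.05 (SE 0.31), a call that ended with libraries rescaled to equal totals (0.93, adjusted p = 0.0604).

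The 5 that fell included both lipases that hydrolyse HDL phospholipid. Lipc, hepatic lipase, measured 407 ± 303 scaled counts against 1271 ± 315, a log2 difference of -1.90 (SE 0.38, adjusted p = 0.0161), and all 4 T cell-low libraries (175 to 827) lay below all T cell-high libraries (928 to 1822). Lipg, endothelial lipase, had 6.90 ± 7.20 against 47.1 ± 18.1 (-3.01, SE 0.60), again without overlap, but it reached the mean of 10 only through the T cell-high libraries. Pon1, the HDL-borne paraoxonase, had 777 ± 253 against 2719 ± 1585 (-1.61, SE 0.46), and the groups overlapped, T cell-high 2 and 4 (900 and 1033) lying below T cell-low 1 (1067). Pcyox1 (-0.69), named after its values were seen, fell too. None of this list passed once T cell-low 2 or T cell-low 4 was left out, where only 0.982% and 1.41% of all genes passed. When T cell-low 3 was left out 2 fell (4.58% of all genes passed). When T cell-low 1 was left out 3 rose and 10 fell (32.7% of all genes passed). Against T cell-high 1, 3, 5 and 6 alone 1 rose and 6 fell (23.6% of all genes passed).

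Of 23 regulators of HDL genes tested, 0 rose and 4 fell, 17.4% against the 7.39% that fell over all genes. Nr1h3, the oxysterol receptor LXR alpha, for which Abca1 is a textbook target, measured 348 ± 234 scaled counts against 747 ± 199, a log2 difference of -1.25 (SE 0.33, adjusted p = 0.0335), the reverse direction of Abca1 itself. T cell-low 1 had 697, within the T cell-high range of 461 to 995, and T cell-low 2, 3 and 4 had 198 to 264. Nr0b2, the bile acid-induced repressor SHP (-2.96, SE 0.78), Ppard (-1.36, SE 0.38) and Mlxipl, a sugar-responsive factor (-1.65, SE 0.30), fell as well. Leaving out T cell-low 2 left no call in this list, T cell-low 4 left 1 and T cell-low 3 left 2. Over all genes 0.982%, 1.41% and 4.58% then passed. Some regulators rose under other choices of libraries. When T cell-low 1 was left out 3 rose and 6 fell, where 32.7% of all genes passed. Against T cell-high 1, 3, 5 and 6 alone 1 rose and 5 fell, where 23.6% of all genes passed.

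**Figure D4:**
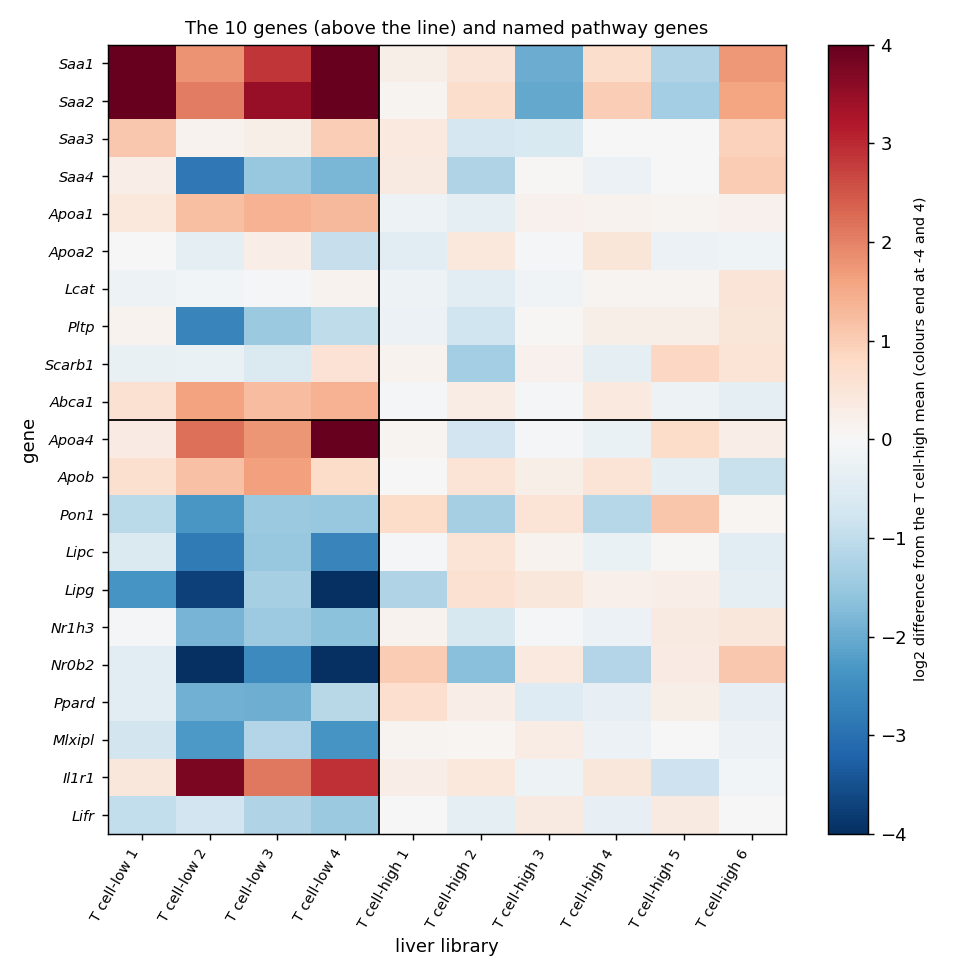
Log2 difference of each library from the mean of the T cell-high libraries (colour, ending at -4 and 4) for the 10 genes above the line and the named HDL, regulator and cytokine receptor genes below it, with the 10 liver libraries as columns. T cell-low 1 shares the high Saa1 and Saa2 of its group but is paler than T cell-low 2, 3 and 4 for Saa4, Pltp, Abca1, Lipc, Nr1h3 and Il1r1.

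Cytokine receptor and signalling genes upstream of Saa1 and Saa2 passed in 2 cases of 26 tested, 7.69% where 12.8% of all genes passed. Il1r1, the interleukin 1 receptor, rose (2194 ± 1715 scaled counts against 339 ± 103, log2 difference 2.32, SE 0.50, adjusted p = 0.019), from 440 in T cell-low 1, within the T cell-high range of 183 to 447, to 4442 in T cell-low 2. The order differed from that of Saa1, which was lowest in T cell-low 2. Lifr, the leukaemia inhibitory factor receptor, fell (693 ± 142 against 1506 ± 326, -1.11, SE 0.21, adjusted p = 0.0135). Without T cell-low 2 or T cell-low 4 no gene of this list rose and 1 fell, where 0.982% and 1.41% of all genes passed. When T cell-low 1 was left out 3 rose and 2 fell, where 32.7% of all genes passed. The factors that act on the Saa genes, named after their values were seen, did not pass. Stat3 had 1119 ± 253 against 1293 ± 408, Cebpb had 637 ± 263 against 544 ± 96.0, and Cebpd had 183 ± 183 against 60.8 ± 31.3 (1.34, SE 0.59, adjusted p = 0.128). Of 16 genes of proposed serum amyloid A receptors and partners 10 could be tested and 0 passed, with 1, Fpr3, listed at 0 in every library. When T cell-low 1 was left out 2 rose and 1 fell, where 32.7% of all genes passed. Against T cell-high 1, 3, 5 and 6 alone 3 fell, where 23.6% of all genes passed. The most abundant, Sdc4 and Scarb2, had log2 differences of 0.43 (adjusted p = 0.158) and -0.45 (adjusted p = 0.19), and Fpr2, named after its values were seen, had 40.2 ± 21.5 against 51.2 ± 30.2.

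Most of the other acute phase genes tested rose, as Saa1 and Saa2 did. Of 22 listed, 21 were tested, 12 rose, 1 fell and 8 did not pass, with a median of 0.92, a list that earlier results of these data had already shown to be high. In shares, 57.1% rose against 5.39% of all genes, and 4.76% fell against 7.39%. The gene that fell was Crp (-0.91, SE 0.27, adjusted p = 0.0479). Hamp (-2.01, SE 0.86, adjusted p = 0.118) did not pass, and both were named after their values were seen. Haptoglobin (Hp) had 65179 ± 7760 against 30076 ± 12456 scaled counts (1.20, SE 0.28) and the plasma glycoprotein gene Lrg1 had 30499 ± 4394 against 10135 ± 4818 (1.72, SE 0.33). In T cell-low livers Hp ranged from 58188 to 73255 where Saa1 spanned 6.66-fold. Leaving out T cell-low 2 or T cell-low 4 left 2 calls in this list, T cell-low 3 left 5, and T cell-low 1 gave 16, of which 14 were higher. Over all genes 0.982%, 1.41%, 4.58% and 32.7% passed without T cell-low 2, 4, 3 and 1.

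The 3 genes most like each of the 10, by Pearson correlation of the log2 values over the 10 libraries, were taken from all other genes tested, and the highest of so many are given with no p. Saa1 and Saa2 had the same first gene, Itih4, an inter-alpha-trypsin inhibitor heavy chain and acute phase protein (r = 0.958 and 0.957 over all libraries, 0.941 and 0.956 within the 6 T cell-high ones). Slfn2 was the next for both (0.942 and 0.939). Saa3 was most like Coro1a, an actin regulator of white blood cells (0.942, and 0.945 within T cell-high). Saa4 was most like H2-Aa, a chain of MHC class II (0.987, and 0.978 within T cell-high), followed by Parva and Snapc5. Apoa1 was closest to Cp, the copper carrier ceruloplasmin (0.975, and 0.887 within T cell-high), and Abca1 to Sdad1 (0.993, and 0.996 within T cell-high). For Apoa2, Lcat, Pltp and Scarb1 the first genes were Vaultrc5, Bop1, Dpm2 and Trnau1ap, with r from 0.958 to 0.978.

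Markers of other cells were measured beside these results. Hepatocyte markers, led by Alb and Ttr, did not pass in any of 8 tested, with a summed level of 289502 to 398322 in the T cell-low group against 210824 to 460698. The summed level of 12 neutrophil genes was 659 to 1788 against 45.0 to 219. Of these S100a8 (603 ± 287 against 44.6 ± 28.1) and S100a9 (440 ± 173 against 48.5 ± 31.6) rose. Ngp and Retnlg passed too, but they reached the mean of 10 only through the T cell-low libraries, and 8 genes stayed under it. Monocyte genes rose in 3 of 6 tested (4279 to 5212 against 2431 to 5426) and Kupffer cell genes in 0 of 12 (7054 to 10885 against 3794 to 13521). Over all genes 5.39% rose. Of the 3 monocyte genes, Chil3 and Vcan reached the mean of 10 only through the T cell-low libraries. Most of the monocyte sum was Fn1 (4412 ± 254 against 3534 ± 969), which did not pass. For sinusoidal endothelium 2 of 10 rose, Lyve1 and Stab2 (3109 to 3750 against 2529 to 3383), but the list median was -0.21. For stellate cells 1 of 10 rose, Rgs5 (3999 to 6410 against 3097 to 4405), with a median of -0.17. For red cells 2 of 8 rose (43187 to 98246 against 19808 to 51956), with a median of 0.57. These were Hba-a2, whose 3′ end is largely shared with Hba-a1, and Slc4a1, which reached the mean of 10 only through the T cell-low libraries. Oit3 (-1.15), Kdr (-0.63), Des (-1.14), Hbb-bs (-2.80) and Car1 (-2.19), named after their values were seen, were lower without passing. Of 3 tested pancreatic genes Cela1 fell (126 ± 33.0 against 293 ± 72.4), and it made up most of the list sum (168 to 271 against 278 to 528). Cela2a (1.69, adjusted p = 0.0897) and Krt7 (1.88, adjusted p = 0.111) were higher and did not pass. With equal totals the calls of Stab2 (adjusted p = 0.058), Rgs5 (adjusted p = 0.0543) and Hba-a2 (adjusted p = 0.0508) ended. When T cell-low 2 was left out 2 neutrophil genes and none of the other markers passed, where 0.982% of all genes did. No listed marker in the table was at 0 in every library.

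Immediate early genes, which respond to handling of tissue, and heat shock genes rose in 4 of 14 tested, where 5.39% of all genes rose. The 4 were Ier3, Btg2, Klf6 and Klf4. Named after their values were seen, Fos, Jun and Egr1 were higher and Dusp1, Zfp36 and Hspa1b lower, without passing. Without T cell-low 1, 8 rose and 1 fell (32.7% of all genes passed). Without T cell-low 2, 3 and 4, 0, 3 and 1 rose (0.982%, 4.58% and 1.41% passed). Against T cell-high 1, 3, 5 and 6 alone 7 rose and 1 fell, where 23.6% of all genes passed. Against T cell-high 2 and 4 alone 0 passed, as did 0% of all genes. The summed level of this list was 2228, 11392, 4907 and 12900 scaled counts in T cell-low 1 to 4, against 1377 to 3752 in T cell-high livers. Among the T cell-low libraries Saa1 was lowest in number 2 and highest in number 4, and Abca1 was highest in numbers 2 and 4. The part of any of these cell types, or of handling, in the differences of the 10 genes was not tested. In whole liver, fewer cells of a type and less RNA per cell cannot be told apart.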

How the data were processed

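Liver RNA was sequenced from transcript 3′ ends (QuantSeq FWD), per the labels' protocols. The submitters' processing notes name DESeq2, STAR and build mm10. Versions, annotation and counting tool were not given in the sources used here. Each deposited value is a signal for one gene in one library, namely a gene count scaled by the authors, and is not a whole number. Between 2.54% and 3.66% of values above 0 per library were whole multiples of a step, so reads were not recovered and no counting interval is given.

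Columns were matched to samples by the submitters' library labels, and groups were taken from titles. Values were put on the scale log2(scaled count + 1) and compared with limma 3.58.1 (R 4.3.3, trend, group as the only term, 13.1 moderated degrees of freedom) over 11110 genes with a mean of at least 10. All p-values are two-sided, Benjamini-Hochberg adjusted over these genes and called below 0.05. The design's quasi-likelihood test for whole counts did not apply. Ratios were compared by exact permutation of the 10 libraries. The limma script was tested on simulated data. 14 gene lists besides the 10 genes were used. Named genes were the 10, up to 5 called genes per list of lowest adjusted p (with fewer than 2 called, also the 2 of highest mean), and the 3 most like each of the 10. The genes, lists, ratios and alternatives were chosen with earlier results of these data known. Positions are from GENCODE vM21 and RefSeq, both of the assembly named mm10. Shared 3′ ends were sought as identical 50-base words within 400 bases of transcript ends. Figures were drawn with matplotlib 3.10.9. One gene counted in the list of other HDL genes is not reported here by name.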

Additional observations from a re-analysis of the deposited data

How the results depend on the processing

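Rescaling to equal totals shifted the median of all genes by -0.12 on the log2 scale and moved the calls over all genes from 599 higher and 821 lower to 421 and 1068, and changed no call or direction among the 10 genes. The same held for median-of-ratios scaling, a mean of at least 50, pseudocounts of 0.5 and 10 and the robust option. With no filter Apoa1 (1.08) did not pass. Library weights called Saa4 (-1.88) and Pltp (-1.48), and a threshold of 0.1 did so too (-1.49 and -1.24). Over all 11110 genes, library weights called 3266 and the threshold of 0.1 called 2871. At 0.01, 0 of the 10 passed, so Saa1 (3.32), Saa2 (3.93), Apoa1 (1.08) and Abca1 (1.21) were lost. Only 54 of all 11110 genes passed at that threshold. Against T cell-high 2 and 4 alone 0 of the 10 passed, and 0 of all 11057 genes tested did. Saa1 was then at 2.72, Saa2 at 3.08, Apoa1 at 1.20 and Abca1 at 0.86, and the sign turned for Lcat (0.0845) and Scarb1 (0.71). The ratio differences were then 0.35 for Saa2 to Saa1, -3.50 for Saa4 to Saa1, -1.77 for Saa3 to Saa1, -1.91 for Apoa2 to Apoa1, -1.12 for Lcat to Apoa1 and 0.15 for Abca1 to Scarb1, none of which could pass with 4 against 2. Saa4 was -1.85, and called, against the other T cell-high libraries, where 23.6% of all genes passed. The cause of these changes was not tested.

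With each library left out in turn the number of the 10 genes called ran from 0 (without T cell-low 4) to 6 (without T cell-low 1). Over all genes 1.41% and 32.7% passed in these 2 cases. The log2 differences ranged from 2.91 to 3.83 for Saa1, 3.47 to 4.55 for Saa2, -2.07 to -1.03 for Saa4, 0.98 to 1.30 for Apoa1, -0.16 to 0.0295 for Lcat, -1.70 to -0.78 for Pltp, -0.41 to 0.0312 for Scarb1 and 1.07 to 1.41 for Abca1. For the ratios they ranged from 0.54 to 0.73 for Saa2 to Saa1, 1.77 to 2.79 for Saa1 to Apoa1 (called without T cell-high 6) and 1.13 to 1.67 for Abca1 to Scarb1. The 2 groups share replicate numbers 1 to 4, and the labels do not say whether these numbers pair the libraries. Deviations of same-numbered libraries from their group means had correlations of 0.10, 0.21, -0.10 and -0.15 for numbers 1 to 4. Of the 4 T cell-low libraries, 1 correlated best with its own number. As the libraries were uneven within groups, these values cannot decide whether the numbers pair them. A replicate block called 2 of the 10 genes (193 of all genes, against 1420), with Apoa1 at 1.15 and Abca1 at 1.06 no longer passing and Lcat at 0.0859 and Scarb1 at 0.21 turned in sign.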

Other observations

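T cell-low 1 combined a high serum amyloid A level with HDL genes near those of T cell-high livers. Among the 10 libraries it had the second highest Saa1 (31820 scaled counts) and Saa2 (28025) and the highest Saa3 (211), together with the third highest Saa4 (2651). For Apoa1 (78947) and Abca1 (624) it was the lowest of its group, and for Pltp (84.0) the highest of its group. T cell-low 2 was the reverse, with the lowest Saa1 (6626) and Saa2 (3990) of its group, the lowest Saa4 (301) and Pltp (11.5) of all libraries and the highest Abca1 (1274). These are single libraries, described after their values were seen and not tested.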
